A study of Mus musculus with 15 samples.

Results

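The change from naive B cells (nB) to plasmablasts (Pb) was described over all genes from 6 of the 15 RNA-seq samples of the series, the 3 nB samples and the 3 Pb samples cultured with DMSO. All cells came from the spleens of female C57BL/6J mice, young adults according to the methods, with no transgene or deletion in any group. The nB were B cells left after CD43+ cells had been removed on magnetic beads, and the labels give them neither a stimulus nor a drug, although their source label speaks of cultured cells. The Pb were CD138+ cells sorted by flow cytometry after 3 days of culture of such B cells with LPS (a ligand of Toll-like receptor 4), IL2, and IL5. DMSO is the solvent of the EZH2 inhibitor used elsewhere in the series and was its vehicle control. Time in culture, stimulus, solvent, and sort thus differed together between nB and Pb and cannot be told apart. Activated B cells (actB, B220+GL7+CD138-) sorted from cultures with the same stimulus and DMSO are given as levels beside them, with no comparison of their own. The labels number the samples of a group but do not say that each came from another animal, so that the p-values measure the spread between these samples, which may be technical.

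Poly(A) RNA was sequenced, and the values are RPKM, reads scaled to the length of the gene and to the reads counted in the library. nB replicates 1 and 2 differed by less than the sampling noise (chi-square per degree of freedom of 0.00958 over 14442 genes, against 8.48 between nB replicates 1 and 3 and 3.58 to 11.1 between Pb replicates) and were counted as 1 library. The comparison therefore rests on 2 nB and 3 Pb libraries of 14 in all. Between 19447155 and 23041361 reads were counted in these samples. Of the 21669 genes with a symbol, 11299 reached 1 RPKM in 3 or more of the 15 samples. These genes entered a limma fit of log2(RPKM + 0.25) over all 14 libraries, which share 1 estimate of the spread. Among the 14 are libraries of actB and Pb treated with the EZH2 inhibitor, which counted for the filter too. The Benjamini-Hochberg adjustment was made over all genes tested. A gene was called at an adjusted p under 0.05, and all adjusted p-values below come from this test. Each value is a share of the reads counted over the genes of the table. Fewer cells of a type and less RNA per cell thus cannot be told apart. The paper states that RNA content expands during differentiation, and RNA per cell was not measured here. Higher and lower below thus refer to shares, and a lower share need not be less mRNA per cell. The table held no immunoglobulin heavy or light chain genes, which are not analysed here. Reads of such genes are thus not part of the totals behind the shares.

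Naive B cells are small resting cells that carry the B cell receptor on their surface and present antigen on MHC class II. After stimulation they grow and divide, and a part of them become plasmablasts, dividing cells that secrete antibody. *Prdm1*, which encodes the repressor Blimp-1, and *Irf4* drive this step and silence the B cell factors led by *Pax5*, while *Xbp1* builds up the endoplasmic reticulum (ER) for secretion.

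Of the genes tested, 4458 were higher in Pb (39.5% of all genes tested) and 4646 were lower (41.1%), and 2195 were not called. At least a 2-fold difference was reached by 2028 genes that were higher (17.9%) and 2181 that were lower (19.3%). A change of at least 16-fold was found for 142 genes that were higher and 195 that were lower. The median log2 fold change was -0.02 and the 5th and 95th percentiles were -2.69 and 2.45, with a median standard error of 0.10. Over the genes tested, log2 levels correlated with a Pearson's r of 0.993 between the nB libraries, 0.993 to 0.996 between Pb libraries, and 0.729 to 0.741 between nB and Pb, a description across genes that are not independent of each other. With 80.6% of genes called, a call alone says little about a gene, and the groups below are read against the 39.5% and 41.1%. The nB and Pb libraries did not overlap for 9824 genes tested (86.95%), so that a lack of overlap says little either.

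**Figure D1:**
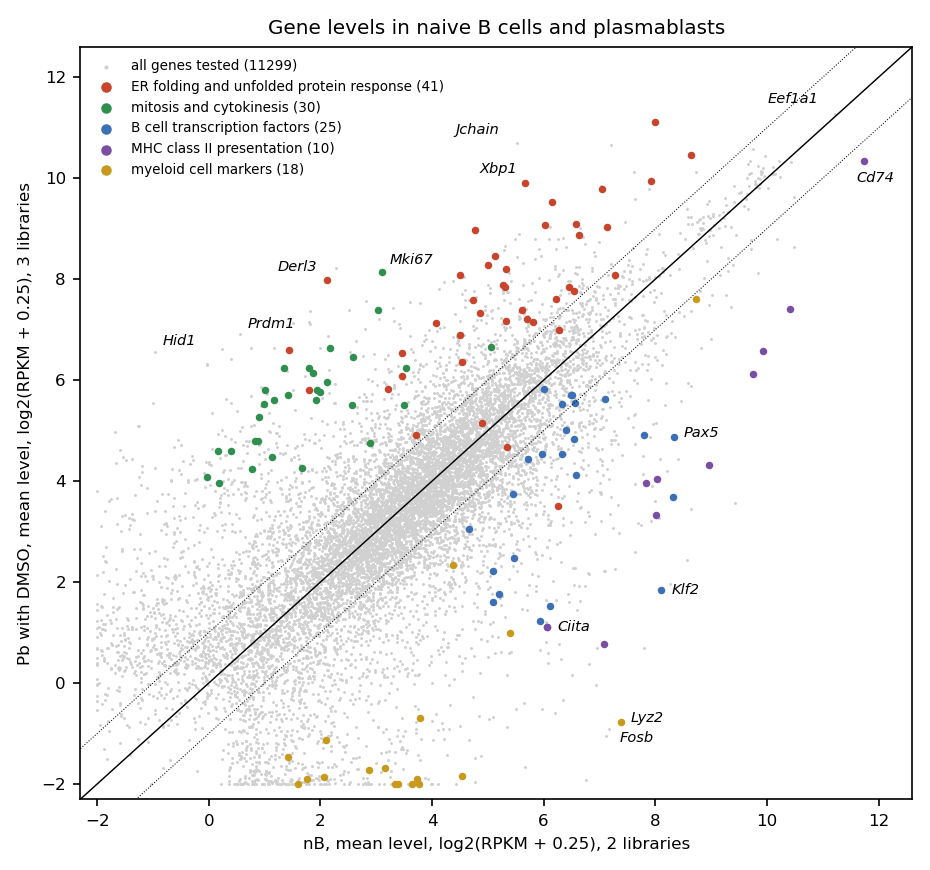
Mean level of each gene tested in nB (x axis, 2 libraries) and in Pb with DMSO (y axis, 3 libraries), both as log2(RPKM + 0.25), where the solid line marks equal levels and the dotted lines a log2 difference of 1. Of the genes of ER folding, 39 of 41 lie above the line, as do those of mitosis, and the B cell transcription factors, MHC class II genes, and myeloid markers lie below it.

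The labelled cell types were first checked against their markers. The B cell genes *Ms4a1* (CD20) and *Cd79b* were high in nB, the former at 278 and 307 RPKM and the latter at 928 and 908 RPKM, and were still detected in Pb, where *Ms4a1* stood at 61.82, 58.9, and 62.02 RPKM. *Sdc1*, which encodes the sorting marker CD138, was 5.22 and 5.12 RPKM in nB and 28.8, 30.4, and 29.8 in Pb, and its mean in actB was 0.665. *Tnfrsf17*, the receptor BCMA of plasma cells, rose from 0.214 and 0.161 to 17.99, 17.2, and 18.2 RPKM. The labels and markers thus went the same way in all 5 libraries.

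The nB libraries also held RNA of markers of other spleen cells. All 18 tested myeloid markers were lower in Pb, and their summed level was 745 to 812 RPKM in nB and 191 to 218 in Pb. Most of the Pb sum was *Ctss*, a protease that B cells also use, at a mean of 194 RPKM. *Lyz2* was 152 and 180 RPKM in nB and at most 0.440 in Pb, and *S100a8*, *S100a9*, *Clec7a*, and *C1qa* had no read in any Pb library. All 17 tested markers of T and NK cells were lower, with sums of 68.0 to 72.3 RPKM in nB and 4.01 to 5.19 in Pb, and *Cd3e* had no read in Pb. The 10 markers of red cells and platelets, of which 5 were tested and lower, summed to 87.0 RPKM in the merged nB library and to 317 in nB replicate 3, against 2.21 to 2.71 in Pb. Of 11 stromal and endothelial markers only *Pecam1*, which B cells express as well, passed the filter. Falls of genes that these cells express are given below with this in view, and the part of the other cells in them was not tested.

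**Figure D2:**
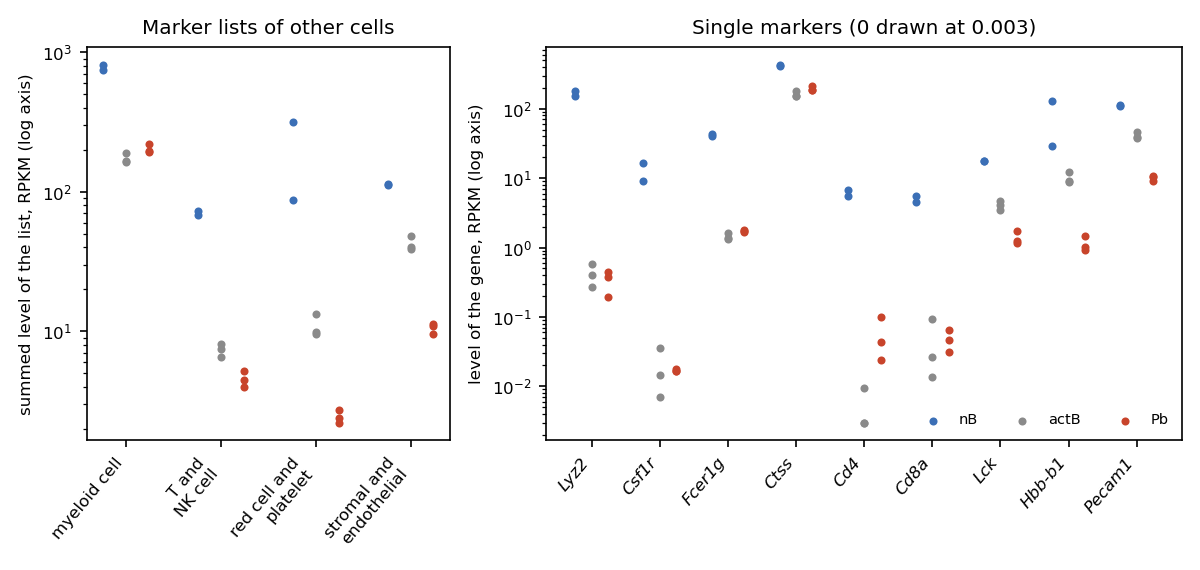
Summed RPKM of each marker list (left) and RPKM of single markers (right) in each library of nB, actB with DMSO, and Pb with DMSO, on log axes, where each point is 1 library and a value of 0 is drawn at 0.003. The nB libraries lie above the cultured and sorted libraries for every list, and the nB libraries differ most from each other in red cell RNA.

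Genes of the plasma cell program rose. Of the 25 members of this list, 22 were higher in Pb, 20 of them at least 2-fold, and 3 were lower, with a median log2 fold change of 3.46. *Prdm1* (chr10:44156983-44248307 in mm9) was 1.25 and 1.18 RPKM in nB and 116, 121, and 126 in Pb. The Pb libraries lay far above both nB libraries, a 99.1-fold rise in mean RPKM (log2 fold change of 6.36 ± 0.08 SE, adjusted p = 5.25e-14), with actB between them at 31.3. *Irf4* was already at 127 and 112 RPKM in nB and reached 358, 391, and 367 in Pb, 3.11-fold higher (log2 fold change of 1.64 ± 0.07 SE, adjusted p = 2.39e-10). *Fam46c*, which encodes a poly(A) polymerase, went from 5.05 and 4.11 RPKM to 298, 309, and 292. *Jchain*, the peptide that joins IgM and IgA into polymers, went from 46.0 and 45.9 RPKM to 1671, 1636, and 1697, a 36.3-fold rise, and the cofactor *Mzb1* of antibody assembly from 144 and 150 to 1556, 1665, and 1653. *Il10*, an inhibitory cytokine, spread more in Pb than these, at 59.1, 100, and 78.7 RPKM against 0.964 and 0.501 in nB. Its libraries did not overlap between the groups, as was so for 86.95% of all genes tested. The 3 members that were lower were the surface proteins *Cd38* and *Cd27* and the factor *Zbtb20*. *Cd38* fell from 102 and 106 RPKM to 19.2, 28.3, and 16.3, and *Cd27* from 4.17 and 4.61 to 1.76, 2.05, and 1.99. CD38 and CD27 mark human plasma cells, and in these mouse cells both genes had a lower RPKM in Pb.

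**Figure D3:**
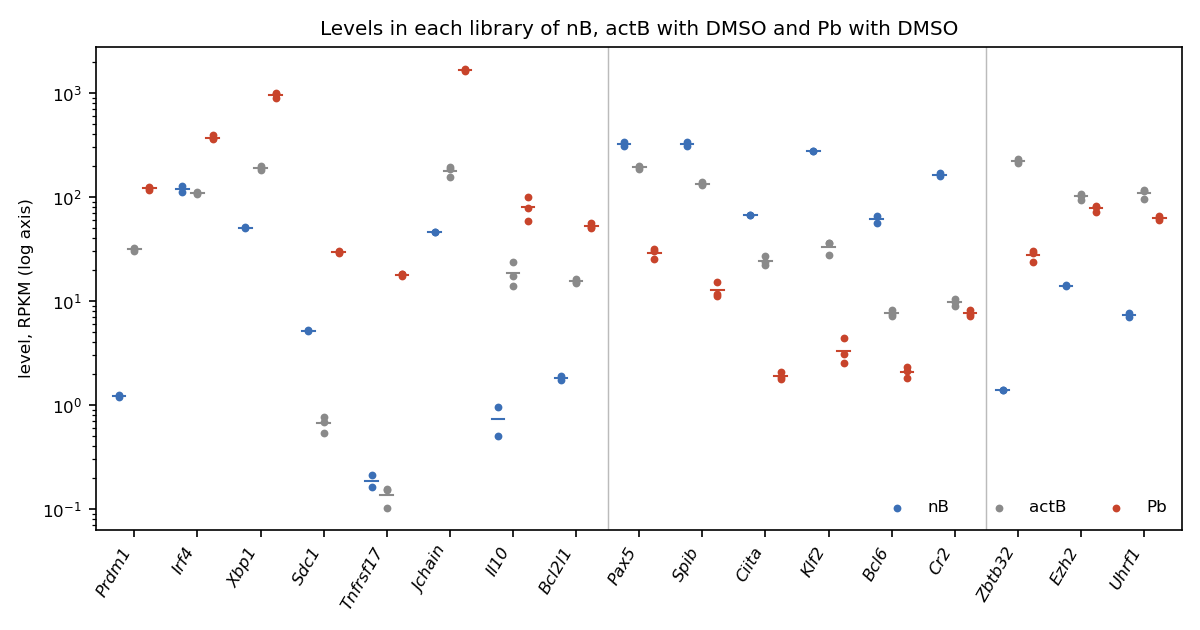
Level of 17 genes in RPKM (log axis) in each library of nB, actB with DMSO, and Pb with DMSO, where points are libraries and dashes the group means. Genes on the left were highest in Pb, genes in the middle were highest in nB, and *Zbtb32*, *Ezh2*, and *Uhrf1* on the right had higher means in actB than in either.

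The secretory pathway took up a larger share of the counted reads, which leave out immunoglobulin heavy and light chains. Its 134 genes in 4 lists (ER folding, ER targeting, vesicle transport, and N-glycosylation) made up 1.74% and 1.68% of the reads in nB, and 7.28%, 7.49%, and 7.24% in Pb. The Pb share was 4.30 times that of nB, and actB lay at 2.81% to 2.94%. *Jchain* alone went from 0.00967% and 0.00964% of the reads to 0.351%, 0.344%, and 0.357%. The exact permutation test used here was made two-sided by doubling the smaller one-sided p. With 2 against 3 libraries it cannot give a p under 0.2, which is the value for both shares.

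**Figure D4:**
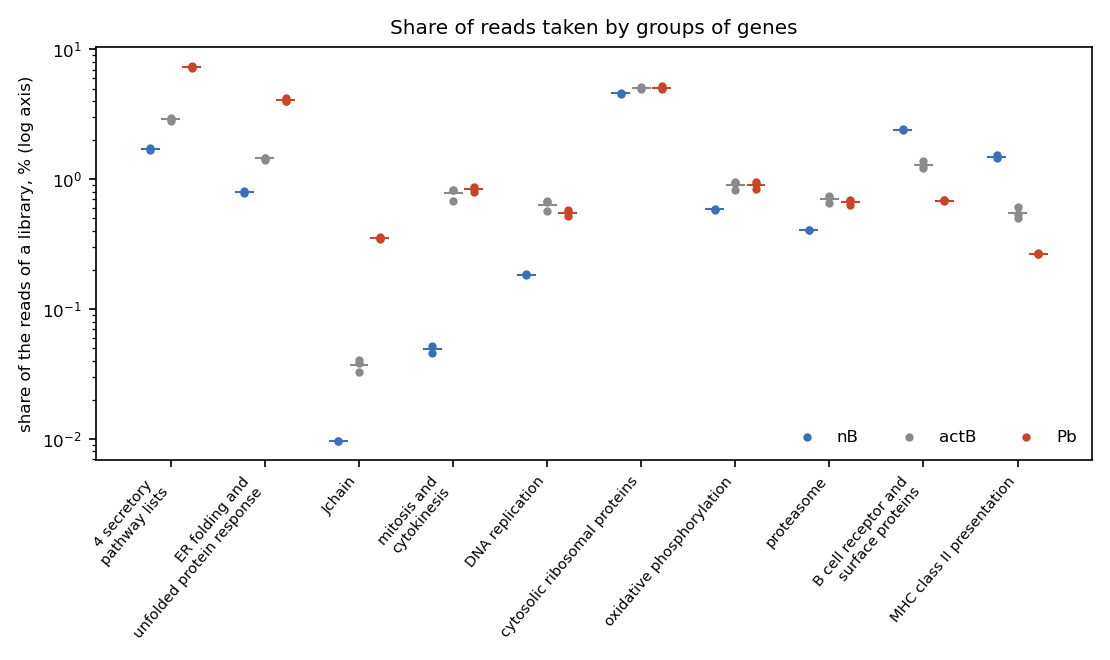
Share of the reads of a library, in percent on a log axis, taken by groups of genes in nB, actB with DMSO, and Pb with DMSO, where points are libraries and dashes the group means. The shares of the secretory lists, *Jchain*, mitosis, and DNA replication were higher in every Pb library than in either nB library, and those of the B cell receptor and MHC class II lists were lower.

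Of 41 genes of ER folding and the unfolded protein response, which match the folding capacity of the ER to its load, 39 rose, 36 of them at least 2-fold, and 2 fell, with a median log2 fold change of 2.51. *Xbp1*, the transcription factor of this response, was 51.2 and 50.3 RPKM in nB and 892, 979, and 996 in Pb, an 18.8-fold rise (log2 fold change of 4.23 ± 0.07 SE, adjusted p = 1.2e-13). *Derl3*, which exports misfolded proteins from the ER, rose from 4.22 and 3.98 RPKM to 229, 282, and 252. The prolyl isomerase *Fkbp11* rose 39.4-fold, from 2.33 and 2.58 RPKM to 87.8, 106, and 96.2. The chaperone *Hsp90b1* (GRP94) rose from 258 and 253 RPKM to 2222, 2244, and 2207 and was second to *Eef1a1* among all genes in mean Pb level. The chaperone *Hspa5* (BiP) rose 4.04-fold and the lectin chaperone *Calr* 3.55-fold. The 2 members that fell were *Ppp1r15a*, from 80.7 and 72.1 RPKM to 11.5, 10.96, and 11.1, and *Ddit3* (CHOP), from 42.9 and 37.4 to 24.6, 26.9, and 24.7. Both belong to the arm of the response that runs through PERK and ATF4 and is linked to cell death, and *Ppp1r15a* is also an immediate early gene. By contrast, 18 of 19 tested genes of amino acid supply and targets of ATF4 (below) were higher. The activity of PERK was not tested.

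Promoters of these genes were searched for the ER stress element, CCAAT and CCACG set 9 bases apart, on both strands of the 250 bases before and 50 bases after each start site (RefSeq, GRCm38.p6). Of the 41 genes, 37 had a promoter in the reference, and 10 of them held the element (27.03%), as did 0.178% of 8964 tested genes with a promoter and 0.119% of 32851 promoters. The genes were listed by hand as members of the response that the element is named for. A high share is thus partly fixed by this choice, which also holds for the elements searched below. The 11 elements of the 10 genes are printed 5′ to 3′ on the strand that reads CCAAT first, with the CCAAT and CCACG in capitals, to show what they share and how the 9 bases between differ.
Derl3: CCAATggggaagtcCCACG
Creld2: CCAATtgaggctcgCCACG
Hsp90b1, element farther from the start: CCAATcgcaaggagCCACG
Hsp90b1, element nearer to the start: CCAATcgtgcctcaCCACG
Pdia6: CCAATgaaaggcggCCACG
Dnajc3: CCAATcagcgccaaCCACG
Hspa5: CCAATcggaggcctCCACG
Calr: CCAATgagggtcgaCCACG
Ero1lb: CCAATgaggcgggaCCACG
Syvn1: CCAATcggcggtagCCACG
Canx: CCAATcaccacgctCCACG

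All 10 of these genes were called higher in Pb, as were 39 of the 41 genes of the list, with log2 fold changes of the 10 from 1.21 (*Canx*) to 5.87 (*Derl3*). The promoters of *Derl3*, *Creld2* (a secreted ER stress protein), and *Hsp90b1*, the holders with the largest rises, are shown whole on the strand of the gene, with the element in capitals. *Hsp90b1* holds 2 elements. A match is a description of the sequence and not a site of binding.
Derl3 promoter, chr10:75893148-75893447 (GRCm38.p6, + strand): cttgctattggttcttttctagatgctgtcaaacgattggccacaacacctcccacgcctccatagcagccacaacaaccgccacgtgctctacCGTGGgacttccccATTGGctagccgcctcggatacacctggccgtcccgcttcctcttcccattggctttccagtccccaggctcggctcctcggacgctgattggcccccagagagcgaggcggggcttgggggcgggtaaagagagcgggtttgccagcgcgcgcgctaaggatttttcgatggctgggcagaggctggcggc
Creld2 promoter, chr15:88819396-88819695 (GRCm38.p6, + strand): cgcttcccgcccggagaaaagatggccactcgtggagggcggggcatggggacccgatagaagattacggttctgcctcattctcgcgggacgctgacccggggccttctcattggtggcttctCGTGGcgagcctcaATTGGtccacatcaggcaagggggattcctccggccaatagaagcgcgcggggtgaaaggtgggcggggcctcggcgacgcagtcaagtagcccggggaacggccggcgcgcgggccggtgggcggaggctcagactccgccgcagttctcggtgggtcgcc
Hsp90b1 promoter, chr10:86705395-86705694 (GRCm38.p6, - strand): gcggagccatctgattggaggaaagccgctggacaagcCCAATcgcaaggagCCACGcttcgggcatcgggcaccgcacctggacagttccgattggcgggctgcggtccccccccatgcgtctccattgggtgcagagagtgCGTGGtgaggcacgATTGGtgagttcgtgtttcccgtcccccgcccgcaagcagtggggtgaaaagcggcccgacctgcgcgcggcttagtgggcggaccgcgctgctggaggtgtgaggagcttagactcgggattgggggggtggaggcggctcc

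The rest of the secretory route rose as well. All 24 genes that bring new proteins into the ER (signal recognition, translocation, and signal peptidase) were higher, with a median log2 fold change of 2.28, led by *Tram2* at 6.19 and 6.82 RPKM in nB and 93.1, 93.6, and 81.4 in Pb. *Ssr2*, a subunit of the translocon-associated complex, rose 10.2-fold, from 48.9 and 44.5 RPKM to 490, 460, and 481. Of the 34 tested genes of COPII and COPI vesicles, which carry cargo between ER and Golgi, 33 were higher and 1 was lower (median log2 fold change of 1.63). The KDEL receptor *Kdelr3* stood at 0.0919 and 0 RPKM in nB and 11.4, 13.8, and 11.8 in Pb, while the COPII coat member *Sec24d* rose 30.2-fold and its relative *Sec24b* was the member that fell, from 29.9 and 27.9 RPKM to 17.5, 16.6, and 16.2. The isoforms of this coat subunit thus moved in opposite directions. Of 34 genes of N-glycosylation, 30 were higher, led by the oligosaccharyltransferase subunits *Rpn1* (10.3-fold), *Ddost* (7.79-fold), and *Stt3a* (6.49-fold), and *Tusc3*, another such subunit, was lower at 0.764 of its nB level. *Dpm2* and *Mpdu1*, of earlier steps of the same pathway, were among those not called (adjusted p of 0.35 and 0.37).

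The element TGACGTGG, to which XBP1 and ATF6 can bind, lay in the promoters of 7 of the 31 genes of COPII and COPI transport with a promoter (22.6%) and in those of 2 of 37 genes of ER folding (5.41%), against 1.06% of tested genes and 0.714% of all genes with a promoter. *Sec16b*, among the 7, was not tested for a change. *Kdelr3*, which had the largest rise among these holders, carries it 23 to 30 bases before the start, as the capitals show on the strand of the gene, where it reads in reverse complement.
Kdelr3 promoter, chr15:79516158-79516457 (GRCm38.p6, + strand): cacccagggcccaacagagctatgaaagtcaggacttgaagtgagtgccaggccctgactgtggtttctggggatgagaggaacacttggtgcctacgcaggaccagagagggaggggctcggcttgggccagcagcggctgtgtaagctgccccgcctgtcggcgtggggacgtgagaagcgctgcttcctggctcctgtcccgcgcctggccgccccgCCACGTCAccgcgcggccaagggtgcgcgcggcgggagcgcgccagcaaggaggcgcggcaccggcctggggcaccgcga

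The B cell program fell. All 25 B cell transcription factors on the list were lower in Pb, 21 of them at least 2-fold, with a median log2 fold change of -1.79. *Pax5*, the factor that maintains B cell identity, was 337 and 306 RPKM in nB and 31.5, 25.2, and 30.5 in Pb, 11.1-fold lower (log2 fold change of -3.46 ± 0.20 SE, adjusted p = 3.85e-09). *Spib* fell more, from 336 and 306 RPKM to 15.2, 11.6, and 11.3, and *Bcl6*, the repressor that opposes *Prdm1*, from 64.9 and 56.6 to 2.32, 2.10, and 1.81. *Ebf1* fell 8.31-fold and *Spi1* (PU.1), which myeloid cells also express, 3.27-fold, while *Irf8* fell 2.62-fold from 85.8 and 82.5 RPKM to 31.6, 30.9, and 33.7. The smallest fall was that of *Tcf3* (E2A), with a log2 fold change of -0.18. The largest was that of *Klf2*, a factor of resting and recirculating lymphocytes, from 273 and 275 RPKM to 4.36, 2.50, and 3.12. No library of Pb reached the nB level for any gene named here, and libraries did not overlap for 86.95% of all genes tested.

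Of 30 genes for the B cell receptor complex and B cell surface proteins, 27 were lower, 22 of them at least 2-fold. *Fcer2a* (CD23) fell 73.9-fold, from 358 and 401 RPKM to 5.85, 4.84, and 4.70, and *Fcmr*, the receptor for IgM, 59.0-fold, from 734 and 639 to 9.04, 15.8, and 10.1. The complement receptor *Cr2* fell 21.4-fold. The signalling chains of the receptor fell less: *Cd79a* went from 1221 and 1096 RPKM to 437, 463, and 428 and *Cd79b* fell 3.29-fold. *Cd24a* and the adaptor *Blnk* were higher by log2 values of 0.59 ± 0.16 and 0.49 ± 0.05 (SE), and the inhibitory receptor *Fcgr2b* was not called (adjusted p = 0.070), at 52.6 and 58.9 RPKM in nB and 62.3 to 65.6 in Pb. Without nB replicate 3, *Fcgr2b* was called higher (adjusted p = 0.048). Summed over the list, the share of reads fell from 2.42% and 2.41% to 0.679% to 0.689%.

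All 10 genes of MHC class II presentation were lower by at least 2-fold, with a median log2 fold change of -3.93. *Ciita*, the master activator of the class II genes, was 66.5 and 67.0 RPKM in nB and 2.06, 1.76, and 1.87 in Pb, 35.2-fold lower (log2 fold change of -4.97 ± 0.16 SE, adjusted p = 1.87e-11). The chains that bind peptide had smaller fold changes than *Ciita*: *H2-Aa* went from 863 and 849 RPKM to 73.7, 62.3, and 71.2, and *H2-Eb1* fell 10.1-fold. *H2-Oa*, which modulates peptide loading, fell 92.6-fold, from 140 and 129 RPKM to 1.34, 1.98, and 1.04. *Cd74*, the invariant chain, had the highest mean level of all genes in nB, at 3532 and 3344 RPKM, and fell 2.64-fold to 1271, 1345, and 1289, where it still was among the 10 most abundant genes of Pb. Myeloid cells express these genes too, and their part in the falls was not tested. The summed level of the list was 7868 to 8293 RPKM in nB, 2858 to 3467 in actB, and 1685 to 1724 in Pb. That of the myeloid markers was 745 to 812, 163 to 191, and 191 to 218, and most of its Pb sum was *Ctss*.

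**Figure D5:**
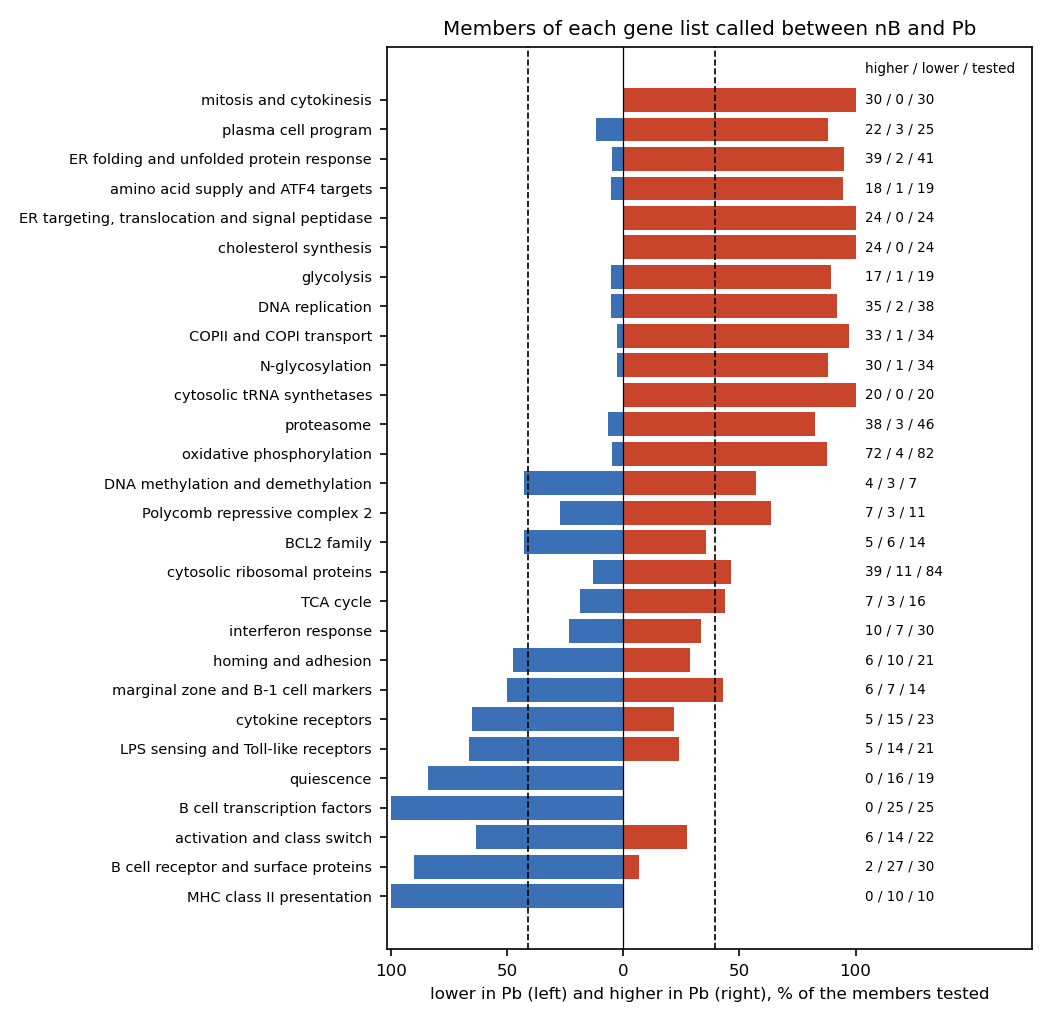
Percent of the tested members of each gene list that were called higher in Pb (red, right) and lower in Pb (blue, left), with the counts beside them and the lists ordered by median log2 fold change. The dashed lines mark the same percents over all genes tested, 39.5% higher and 41.1% lower.

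Genes of cell division were among those that rose most. All 30 genes of mitosis and cytokinesis were at least 2-fold higher, with a median log2 fold change of 3.94, and their share of the reads went from 0.0462% and 0.0519% to 0.877%, 0.804%, and 0.847%. The proliferation marker *Mki67* rose 33.9-fold, from 6.49 and 10.1 RPKM to 296, 275, and 274, and the mitotic kinase *Cdk1* 31.6-fold, from 1.41 and 2.11 to 55.7, 51.9, and 59.2. The levels of actB, 183 RPKM for *Mki67* and 43.7 for *Cdk1*, were nearer to Pb than to nB. Of 38 genes of DNA replication, 35 were higher and 2 were lower, with a median log2 fold change of 1.82. *Cdc6*, which loads the replicative helicase, went from 0.824 and 0.915 RPKM to 31.2, 30.2, and 29.9, and *Rrm2*, the regulated subunit of ribonucleotide reductase, from 5.46 and 8.13 to 192, 174, and 200. *Pold1* and *Rfc1* were lower by log2 values of -0.93 and -0.71, and *Rpa1* was not called (adjusted p = 0.41). Sites of the kind bound by E2F factors (TTTCCCGC, TTTGGCGC, TTTCGCGC, or TTTGCCGC on either strand) lay in 12 of 30 replication genes with a promoter (40%), among them *Pold1*, and in 4.92% of tested genes. They lay in 1 of 25 mitosis genes with a promoter (4%). The promoter of *Cdc6*, the holder with the largest rise, is shown with its site in capitals, in reverse complement.
Cdc6 promoter, chr11:98907901-98908200 (GRCm38.p6, + strand): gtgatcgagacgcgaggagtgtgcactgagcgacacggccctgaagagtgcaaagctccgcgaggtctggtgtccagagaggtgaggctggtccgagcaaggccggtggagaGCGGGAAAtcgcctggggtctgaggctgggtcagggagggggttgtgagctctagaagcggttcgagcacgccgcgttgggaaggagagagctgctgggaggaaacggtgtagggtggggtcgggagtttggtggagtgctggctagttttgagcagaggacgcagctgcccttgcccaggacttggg

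Of 19 genes tied to quiescence, 16 were lower and none was called higher (2 had log2 fold changes just above 0). *Btg1*, an inhibitor of proliferation, fell 28.5-fold, from 279 and 259 RPKM to 9.74, 10.2, and 8.40, and *Tsc22d3* (GILZ) 15.96-fold. The CDK inhibitor *Cdkn1b* (p27) stood at 50.8 and 53.6 RPKM in nB and 52.6, 56.9, and 48.7 in Pb (adjusted p = 0.92), and the libraries overlapped. *Ccng2* and *Tsc2* were not called either.

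Among the 11 genes of Polycomb repressive complex 2, which places the H3K27me3 mark, 7 were higher and 3 were lower. *Ezh2*, its catalytic subunit, was 13.8 and 14.3 RPKM in nB and 80.3, 71.2, and 81.4 in Pb (log2 fold change of 2.44 ± 0.09 SE, adjusted p = 5.08e-11), while its paralog *Ezh1* fell from 19.0 and 19.9 to 5.96, 6.66, and 6.12. The mean level of *Ezh2* in actB was higher, at 101 RPKM. The accessory subunits *Phf19* and *Aebp2* rose 2.80-fold and 2.71-fold and *Phf1* fell 5.51-fold, whereas the core subunit *Eed* was not called (adjusted p = 0.26). Thus the catalytic and accessory subunits each held members that moved in opposite directions. Of 7 genes that write, read, or erase DNA methylation, *Uhrf1*, *Tdg*, *Dnmt1*, and *Tet2* were higher and *Tet3*, *Dnmt3a*, and *Dnmt3b* were lower. *Uhrf1*, which brings *Dnmt1* to replicating DNA, rose 8.54-fold, and *Tet3* fell from 21.1 and 20.7 RPKM to 3.90, 3.39, and 3.63.

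Genes of supply and energy rose with them. Of 19 tested genes of amino acid supply and targets of ATF4, 18 were higher, with a median log2 fold change of 2.40. The arginine and lysine transporter *Slc7a3* went from 0.220 and 0.111 RPKM to 34.0, 34.1, and 33.9, asparagine synthetase *Asns* from 0.608 and 0.839 to 82.4, 76.4, and 77.0, and *Chac1*, which degrades glutathione, from 0.111 and 0.0554 to 22.1, 21.2, and 29.6. All 3 were among the 10 largest rises. The glutamine transporter *Slc38a1* was the member called lower, with a log2 fold change of -0.20 (adjusted p = 0.016), and that call was lost without Pb replicate 2 (adjusted p = 0.056) and without nB replicate 3 (adjusted p = 0.078). All 20 cytosolic tRNA synthetases were higher, led by *Yars* (6.93-fold), and so were all 24 genes of cholesterol synthesis, led by *Fdps* at 18.8 and 17.9 RPKM in nB and 240, 261, and 242 in Pb. The median log2 fold changes of these lists were 1.35 and 2.04. A sterol element (TCACCCCAC on either strand) lay in 1 of 17 cholesterol genes with a promoter (5.88%), *Hmgcs1*, and in 0.625% of tested genes.

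Of 19 tested glycolytic genes and their transporters, 17 were higher (median log2 fold change of 1.90). The lactate exporter *Slc16a3* rose 51.2-fold and *Tpi1* 9.84-fold, from 39.5 and 38.1 RPKM to 411, 368, and 366. Hexokinase isoforms differed, as *Hk2* went from 3.50 and 3.51 RPKM to 30.9, 30.9, and 28.6 and *Hk1* was not called (adjusted p = 0.40). Glucose transporter *Slc2a3* fell 2.79-fold. Of 82 tested subunits of oxidative phosphorylation, 72 were higher but only 26 of them 2-fold, with a median log2 fold change of 0.77. *Cox4i2*, the isoform of cytochrome oxidase subunit 4 that is induced by low oxygen, had no read in nB and 12.96, 16.3, and 12.2 RPKM in Pb, at least 92.3-fold higher if 3 reads per nB library are taken as the floor. Of the 4 subunits called lower, *Atp5sl* and *Atp5s* bear names of ATP synthase but are not core subunits of it. The tricarboxylic acid cycle showed no common direction, with 7 genes higher, 3 lower, and 6 not called. *Vegfa*, a secreted growth factor that low oxygen also induces, was among the largest rises, from 1.20 and 0.665 RPKM to 94.3, 103, and 94.9.

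Of 46 tested proteasome genes, 38 were higher, with a median log2 fold change of 0.80, led by *Psmd14* at 50.3 and 51.4 RPKM in nB and 152, 131, and 146 in Pb. *Psmb10*, a subunit of the immunoproteasome, fell from 63.0 and 58.6 RPKM to 34.8, 36.2, and 34.9. Cytosolic ribosomal proteins changed little: 39 of 84 were higher, 11 were lower, and the median log2 fold change was 0.12, but after quantile normalization 19 were higher and 30 were lower, so that their direction rested on the scaling. *Rps27l*, a p53 target that differs in regulation from the other ribosomal proteins, was the sole member with a 2-fold change, from 40.7 and 50.9 RPKM to 340, 324, and 381. Ribosomal protein genes have many processed pseudogenes, and reads shared with them make single values uncertain.

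Receptors for outside signals mostly fell. Of 23 cytokine receptor genes, 15 were lower, among them *Il4ra* (11.7-fold, from 77.9 and 78.3 RPKM to 6.28, 7.47, and 6.22) and *Il27ra* (32.7-fold). The receptors of the cytokines in the culture did not move together. *Il2ra*, the high-affinity chain of the IL2 receptor, rose from 1.60 and 1.404 RPKM to 31.5, 38.0, and 32.8, *Il2rb* was not called (adjusted p = 0.34), and *Il2rg* fell from a mean of 198 to 81.8 RPKM. The IL5 receptor chain *Il5ra* was 16.6 and 21.8 RPKM in nB and 15.4, 25.4, and 15.3 in Pb (adjusted p = 0.82), with overlapping libraries, and its partner *Csf2rb* rose 7.61-fold. Of 21 tested genes of LPS sensing and Toll-like receptors, 14 were lower and 5 were higher. *Tlr9* fell 46.2-fold, from 63.5 and 58.6 RPKM to 1.23, 1.31, and 1.43, and *Tlr1* 28.1-fold, while *Ly96* (MD-2), the partner of the LPS receptor, rose from 6.34 and 6.25 to 18.1, 16.4, and 16.4.

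Of 21 genes of homing and adhesion, 10 were lower (47.6%, beside 41.1% of all genes tested), 6 were higher, and 5 were not called. The chemokine receptor *Ccr7* went from 223 and 174 RPKM to 5.36, 7.36, and 4.65 and the integrin chain *Itgb7* from 88.4 and 86.5 to 2.10, 3.68, and 2.62. Pb replicate 2 was the highest Pb library for both. *Spn*, which encodes CD43, the protein by which cells were removed from the nB, rose 10.04-fold, from 9.16 and 8.89 RPKM to 87.4, 102, and 82.8. The mucosal receptor *Ccr10* was at 0.0249 and 0 RPKM in nB and at 2.65, 2.33, and 2.93 in Pb. The integrins *Itga4* and *Itgb2* and the chemokine receptor *Cxcr3* were among the members not called.

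Genes of the BCL2 family, survival genes and killers, went both ways, with 5 of 14 tested higher and 6 lower. These shares, 35.7% and 42.9%, lay near the 39.5% and 41.1% of all genes tested. After median scaling 8 were higher. *Bcl2l1*, which encodes BCL-XL, rose 28.9-fold, from 1.90 and 1.74 RPKM to 49.9, 56.2, and 51.4, while *Bcl2* fell 3.30-fold, from 18.6 and 17.9 to 5.47, 5.51, and 5.56. *Mcl1* was 271 and 260 RPKM in nB and 289, 305, and 282 in Pb (log2 fold change of 0.13 ± 0.06 SE, adjusted p = 0.060), and was called higher without Pb replicate 3 (adjusted p = 0.048). The killers *Bcl2l11* (BIM) and *Pmaip1* (NOXA) moved apart, BIM 5.52-fold higher and NOXA 6.35-fold lower. Of the antiapoptotic genes named here, each thus had a course of its own.

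Interferon response genes had no common direction, with 10 of 30 higher, 7 lower, and 13 not called. *Isg15* went from 7.32 and 9.82 RPKM to 44.3, 89.0, and 53.3 and *Igtp* from 12.2 and 11.99 to 85.7, 127, and 81.8, whereas *Ifit3* fell from 10.01 and 12.5 to 0.103, 0.220, and 0.0721 and *Ifit2* from 7.51 and 9.93 to 0.547, 0.619, and 0.475. Pb replicate 2 stood apart on this list, with a summed level of 1239 RPKM against 848 and 849 in the other Pb libraries. Without it, 9 members were higher and 10 were lower, and without nB replicate 3, 9 were higher and 4 were lower.

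Immediate early genes, which many stimuli including cell handling induce within minutes, were high in nB and low in both cultured cell types. *Fos* was 309 and 308 RPKM in nB, 3.69, 3.27, and 3.996 in Pb, and 0.563 in actB, and *Fosb* was 149 and 138 RPKM in nB and 0.273, 0.319, and 0.244 in Pb. *Nr4a1*, an early target of the B cell receptor, went from 260 and 187 RPKM to 1.16, 1.42, and 1.495, and *Egr1* from 108 and 95.5 to 7.67, 10.5, and 14.7. The nB and the sorted cells also differed in how they were isolated, on beads or by flow cytometry, and its part in these values cannot be told apart from that of the cell type. They belong to the list of activation and class switch genes, in which 14 of 22 tested were lower and 6 were higher. Among the 6 was the feedback inhibitor *Cish*, which rose 57.7-fold. *Zbtb32*, a repressor of B-1 and activated B cells, had its highest level in actB, at 1.396 and 1.38 RPKM in nB, a mean of 222 in actB, and 29.97, 23.5, and 29.0 in Pb. Of 14 markers of marginal zone and B-1 cells, *Zbtb32* and *Mzb1* among them, 6 were higher and 7 were lower, with a median log2 fold change of -0.33. The lower members include *S1pr3* and *Cr2*, and also *Fcer2a*, which follicular B cells express and marginal zone and B-1 cells have little of.

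The study listed genes whose promoters were open in undivided B cells before the genes were induced in vivo (primed genes), with or without H3K27me3. They were chosen, on other libraries, as induced between undivided cells and cells past many divisions in vivo, so that a rise here is partly fixed by how they were chosen. Of 102 tested primed genes marked by H3K27me3, 98 were higher in Pb and 1 was lower, with a median log2 fold change of 1.47. Of 650 without the mark, 612 were higher and 6 were lower, with a median of 1.35. The largest rises among the marked genes were those of *Prdm1*, *Fndc3b* (36.9-fold), and *Wipi1*, an autophagy protein (41.7-fold), and the marked gene that fell was *Rhob*, from 62.5 and 65.8 RPKM to 27.2, 31.0, and 26.6. The primed gene *E2f8*, a repressor among the E2F factors, rose 12.2-fold, and *Emc7*, of the ER membrane complex, 4.01-fold. Among the unmarked genes, *Eaf2*, an elongation factor partner, rose 42.1-fold, from 3.26 and 3.28 RPKM to 136, 133, and 144, and *Rgs1* and *Fos* fell most. Of 97 transcription factors that the study linked by motif to regions of changing accessibility, 63 were matched by symbol. Of the 61 tested, 35 were lower, 16 were higher, and 10 were not called. *Atf1* was not called (adjusted p = 0.58), nor was *Tbx21*, whose Pb libraries held 0.947, 2.68, and 1.07 RPKM against 2.25 and 2.29 in nB. Without Pb replicate 2, *Tbx21* was called lower (adjusted p = 0.047).

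Over all called genes with non-overlapping libraries and a mean of at least 5 RPKM in the higher group, the largest rise on the log2 scale was that of *Hid1*, a protein of the Golgi in secretory cells (chr11:115209021-115229070 in mm9), from 0.220 and 0.300 RPKM to 90.3, 99.1, and 94.3, or 364-fold (log2 fold change of 7.54 ± 0.10 SE, adjusted p = 5.25e-14). The Golgi cargo protein *Tmed6* went from 0.301 and 0.203 RPKM to 51.0, 31.7, and 56.0 and *Cpeb3*, a regulator of translation, from 0.193 and 0.147 to 33.2, 38.8, and 29.2. *Gm6455*, a predicted gene model, was also among the 10 largest rises. Its ratio of mean RPKM, 516-fold, was above that of *Hid1*, from 0.0401 and 0.0812 RPKM in nB. The other members of the 10 have been named above. Of the 10 largest falls, *Hba-a2*, *Hbb-bs*, *Lyz2*, and *Tyrobp* are genes of red cells or of myeloid and NK cells. *Hba-a2* was 51.8 RPKM in the merged nB library and 165 in nB replicate 3, and at most 0.0433 in Pb, and haemoglobin genes have near-identical copies that can share reads. The others were *Fosb*, *Nr4a1*, *S100a4*, *Plaur* (the urokinase receptor), *Apol7c*, and *March1*. *Apol7c* had a mean of 27.05 RPKM in nB, 0.00669 in actB, and 0.00783 in Pb. The part of other spleen cells in the falls of *S100a4*, *Plaur*, and *Apol7c* was not tested either. *March1*, a ubiquitin ligase that removes MHC class II from the surface, was 80.1 and 81.2 RPKM in nB and 0.480, 0.660, and 0.496 in Pb. It thus fell together with the class II genes.

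Some genes were found in 1 cell type alone at this depth. In all, 62 genes had no read in any Pb library and an RPKM of at least 1 in both nB libraries, led by *Cd7* with a mean of 21.4 RPKM (at least 141-fold higher in nB, with 3 reads per library as the floor), *C1qc*, *Vcam1*, *Ifitm6*, and *C1qa*. *C1qc*, *C1qa*, *Vcam1*, and *Ifitm6* are known from macrophages or other myeloid cells, and *C1qc* differed between the nB libraries, with 230 and 596 reads. Whether the *Cd7* reads of nB came from B cells or from other cells was not tested. In the other direction 8 genes had no read in nB and at least 1 RPKM in every Pb library, of which *Cox4i2* was by far the highest. The others include *Mir148a* and *Snord11*, short entries that rest on few reads in libraries made from poly(A) RNA. With an RPKM of at least 3 the counts were 27 and 2.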

How the data were processed

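RNA of 15 samples was sequenced as 50 bp paired-end reads from a stranded poly(A) kit. Per the labels and the study's methods, the authors mapped reads to mm9 with TopHat2 (named in the processing notes) and counted them over UCSC Known Genes with GenomicRanges, and whether strand was used is not given in the sources used here. The deposited values are reads scaled to the library total (RPM), from which RPKM was obtained by dividing by the length given for each gene, in kilobases. RPM values were whole multiples of 1 read for 100% of values (tolerance of 0.05 read), from which reads were recovered. The 15 samples held 14 libraries, as nB replicates 1 and 2 were averaged, and all 15 columns of values were used. At these depths 3 reads equal 0.130 to 0.154 RPM, a floor that covers counting error only. The 92 genes without a symbol took at most 0.0905% of reads and were left out.

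The 11299 of 21669 genes that reached 1 RPKM in 3 or more columns entered a linear model with a trended variance prior (limma 3.58.1, R 4.3.3) on log2(RPKM + 0.25) over all 14 libraries, which share 1 estimate of the spread with 9 residual degrees of freedom. Fold changes on this scale understate the change of low genes, and folds in the text are ratios of mean RPKM. P-values were adjusted over all genes tested. Shares were compared with an exact two-sided permutation test (scipy 1.17.1). The procedure was tested on simulated data.

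Genes were named by rule: the 10 largest rises and falls by log2 fold change among called genes whose mean reached 5 RPKM in the higher group and whose libraries did not overlap, the called members of each list with the largest changes (3 in the commoner direction and 2 in the other), members not called where 5 or fewer, genes the study names, and the 10 most abundant genes. Other genes, such as cell type markers, holders of promoter elements, and examples from the tables of families, were chosen after their values were seen. The members and lists were chosen with earlier results of these data known. Coordinates are mm9 (GENCODE), given for 11023 tested genes, and promoters are RefSeq sequences of GRCm38.p6. Alternatives were other pseudocounts, filters, scalings, and variance settings, the 2 groups alone, 15 columns as deposited, leaving out each library, a replicate block, and edgeR 4.0.16 quasi-likelihood tests on the recovered reads.

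Some genes are not reported here.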

Additional observations from a re-analysis of the deposited data

How the results depend on the processing

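The counts of genes called higher and lower kept within 1.5 times of their values under all alternatives run. Higher genes were 42.6% of the calls without a filter on low values (5103 higher and 6875 lower of 18752 genes) and 51.9% after median scaling, against 49.0%. Leaving out each library gave 4073 to 4407 genes higher and 4328 to 4549 lower, and edgeR on recovered reads gave 4480 and 4589 with TMM factors. Deviations from the group means correlated with an r of 0.03 between nB and Pb replicate 3. The r was 0.14 between the merged nB library and Pb replicate 1, and -0.087 between it and Pb replicate 2. With 2 nB libraries the deviations of nB are mirror images of each other. The check thus cannot decide whether the replicate numbers pair nB with Pb. Cultured libraries of the same number did deviate together, with an r of 0.324, 0.526, and 0.307 between actB and Pb with DMSO for numbers 1 to 3, while the fit pooled the spread of all 14 libraries. A replicate block gave 4710 higher and 4861 lower genes when the merged library took number 1, and 4597 and 4800 when it took number 2. Of the named genes, *Slc38a1* lost its call after median scaling (adjusted p = 0.067) and *Psmd10* without nB replicate 3 (adjusted p = 0.12), besides the losses of *Slc38a1* given above, and none changed sign. In the other direction 22 named genes that were not called gained a call in at least 1 alternative (63 gene and setting pairs, against 4 losses), among them *Mcl1*, *Fcgr2b*, *Il2rb*, *Eed*, *Itgb2*, and *Tbx21*. Interferon genes called lower numbered 14 with the block (merged library as number 1). The cause was not tested.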

Other observations

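Other gene families, chosen by symbol after their values were seen, are given by counts. Of 76 mitochondrial ribosomal proteins, 55 were higher and 4 were lower in Pb (median log2 fold change of 0.54; 2 were lower without nB replicate 3), and of 52 tested translation initiation factors 39 were higher and 7 lower (median of 0.51), beside 39.5% and 41.1% of all genes tested. All 8 Gimap GTPases, which lymphocytes express, were lower (median of -1.53), as were 10 of 12 tested Kruppel-like factors (median of -1.30), none of which was called higher. Of 289 tested Zfp zinc finger genes 145 were lower and 69 higher.

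Regulators of G-protein signalling, which dampen chemokine receptors, were lower in 8 of 11 tested genes, and *Rgs10* was called higher, from 14.6 and 13.6 RPKM in nB to 47.5, 47.3, and 48.7 in Pb. Guanylate binding proteins and immunity-related GTPases were higher in 11 of 13 tested genes (median of 1.61). Among them *Iigp1* was 21.8 RPKM in Pb replicate 2 and 6.09 and 5.34 in the other Pb libraries, the library that also had the highest sum of interferon response genes.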
